A study of Mus musculus with 8 samples.

Results

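The genes described here are 10 cytokine genes of mouse cells labelled as dendritic cells, taken by symbol from a table of 15465 genes. The inflammatory class held Tnf, Il1a, Il1b, Il6 and Il12b, and the suppressive class held Il1rn, Il10, Tgfb1, Il27 and Ebi3. All 10 had a row in the table, all are protein-coding, and their positions below are on GRCm38. The cells were wild-type C57/BL6 bone marrow cells, grown for 6 days with GM-CSF plus IL-4 and given LPS (lipopolysaccharide, a bacterial stimulus of innate immune cells) for the next 24 hours. CD11c-positive cells were then taken with magnetic beads and kept for 9 days with spleen stroma, which gave the cells the submitters call diffDC. All 8 samples share these steps. They differ in the siRNA transfected at the end, 4 with the control si-nc and 4 with si-Suclg2, directed at Suclg2, a subunit gene of mitochondrial succinyl-CoA ligase. The sources used here do not give the age of the mice, the time from transfection to collection or the origin of the replicates. The p-values therefore measure only the spread between these samples, which may be technical.

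Myeloid cells answer microbial signals with cytokines that drive inflammation and with others that hold it back. Tumour necrosis factor and the IL-1 cytokines act early on surrounding cells, and interleukin 6 and the p40 subunit encoded by Il12b shape later immunity. The opposing side includes IL-10, transforming growth factor beta and the IL-1 receptor antagonist. In dendritic cells the balance is known to influence whether T cells are activated or kept in check. Ebi3 and Il27 encode the subunits of interleukin 27, which has suppressive as well as stimulatory effects on T cells, so its place in the suppressive class is a simplification.

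Values are FPKM (fragments per kilobase of transcript, scaled to the library), which allow levels of different genes to be set side by side. The files hold no read counts, so depth is unknown, though each library had 9903 to 10177 genes at 1 FPKM or more. The target Suclg2 fell from 4.59 ± 0.122 FPKM in the si-nc group to 2.48 ± 0.252 FPKM in the si-Suclg2 group (SD, n = 4 each; limma adjusted p = 8.84e-05), with no overlap between groups. Of the markers for the labelled cell type, Itgax (CD11c) was at 20.2 ± 2.84 and 12.6 ± 0.958 FPKM in these groups. In the same order Clec10a averaged 12.6 and 4.2 FPKM, Fscn1 12.2 and 8.27 FPKM, and Ccr7 4.7 and 4.1 FPKM. Flt3, Zbtb46 and Clec9a, which serve as markers of conventional dendritic cells, stayed below 1 FPKM in all 8 samples. Macrophage genes were abundant in both groups. The 8 macrophage and monocyte markers summed to at least 15826 FPKM in every sample, and the 7 dendritic cell markers to at most 55.2 FPKM. These levels do not mark the cells as conventional dendritic cells, and the name used here follows the submitters. In the whole table, replicate numbers 1 and 2 stood apart from numbers 3 and 4 in both groups, so the levels of the 10 cytokine genes are given by number. Genes with a mean of at least 1 FPKM in at least one group were tested with limma on log2(FPKM + 1), adjusted over all 10176 genes tested. The log2 fold changes are si-Suclg2 minus si-nc on that scale, which understates the change of low genes, and folds are ratios of mean FPKM.

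The inflammatory genes Il1b, Il12b and Tnf and the suppressive genes Il10, Ebi3 and Il27 were all higher with si-Suclg2, and Tgfb1 was slightly lower. Of the 10 genes, 9 reached the filter, all of them in both groups. Among these 9 genes 6 rose, 1 fell and 2 did not pass the test. Over all genes tested, 26.9% were called, 12.0% as higher and 14.9% as lower. Samples of one group all lay on one side of the other group for 7 of the 9 genes, 6 higher and 1 lower, against 29.6% of all genes, 13.2% higher and 16.4% lower. With the replicate number as a block in the fit 8 of the 9 were called, where 40.5% of all genes were, with 7 rises against 18.0% of all genes and 1 fall, Tgfb1, against 22.5%. Il6, at just under 1 FPKM in both groups, was not tested. Il12b, with a si-nc mean of 1.33 FPKM, lay nearest to the filter among the genes tested. Expression was measured in bulk, so a smaller number of expressing cells and less RNA per cell cannot be told apart for any gene below.

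**Figure D1:**
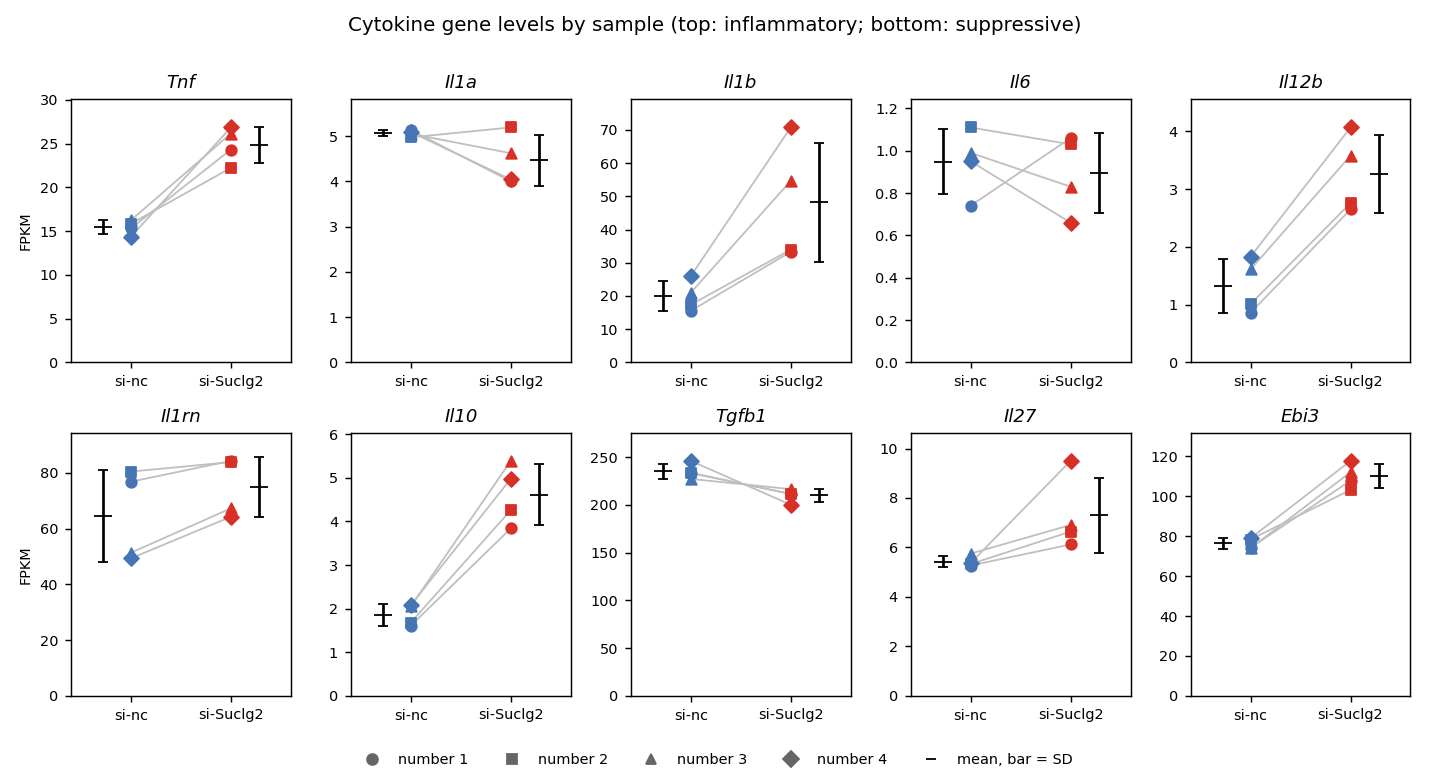
FPKM of the 10 cytokine genes in each sample, on linear axes from 0, with the inflammatory genes in the top row and the suppressive genes in the bottom row. Blue points are si-nc and red points si-Suclg2, symbols give the replicate number, grey lines join equal numbers, and black bars show the mean and SD (n = 4). The groups are separate for Tnf, Il1b, Il12b, Il10, Tgfb1, Il27 and Ebi3 and overlap for Il1a, Il6 and Il1rn.

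In the si-nc cells the 3 highest levels were those of suppressive genes. Tgfb1 led with a mean of 235.2 FPKM, ahead of Ebi3 at 76.4 and Il1rn at 64.5 FPKM, whose ranges over samples overlapped. Il1b at 19.9 and Tnf at 15.4 FPKM came next, also with overlapping ranges. Il27 at 5.43 and Il1a at 5.06 FPKM followed. Il10 at 1.85, Il12b at 1.33 and Il6 at 0.948 FPKM were lowest, and in that order each range overlapped the next. With si-Suclg2 the order was the same apart from Il10, at 4.62 FPKM, which then stood beside Il1a at 4.46 FPKM. The ranges of Il1b and Tnf no longer overlapped in that group, while those of Il1rn and Il1b did.

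Tnf encodes tumour necrosis factor (gene ID 21926, minus strand of chromosome 17 from 35199381 to 35202007). In si-nc samples 1 to 4 it was at 15.31, 15.84, 16.24 and 14.36 FPKM. In si-Suclg2 samples 1 to 4 it was at 24.32, 22.23, 26.15 and 26.85 FPKM. Every si-Suclg2 sample lay above every si-nc sample, and the 2 groups were tight. The rise was 1.61-fold (0.65 ± 0.0655 as log2 fold change with SE, limma adjusted p = 0.00012).

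Il1b encodes interleukin 1 beta, made as an inactive precursor that caspase-1 cleaves (gene ID 16176, minus strand of chromosome 2 from 129364570 to 129371139). Its si-nc samples were at 15.52, 17.36, 20.96 and 25.94 FPKM. Its si-Suclg2 samples were at 33.30, 33.95, 54.65 and 70.76 FPKM. The groups did not overlap, but numbers 3 and 4 were higher than numbers 1 and 2 in each group, and the si-Suclg2 values spread widely. The mean rose 2.41-fold (1.18 ± 0.244 as log2 fold change with SE, limma adjusted p = 0.00625). Within the same number the fold was 2.15, 1.96, 2.61 and 2.73. When samples 1 and 2 were averaged into 1 replicate and samples 3 and 4 into another, the log2 fold change was 1.19 and did not pass (limma adjusted p = 0.126). That fit, and each later one on such averages, did not match the pairs across groups. A shift between pairs shared by both groups therefore added to its SE, here 0.317. Numbers 1 and 2 alone gave a log2 fold change of 0.99, and numbers 3 and 4 alone gave 1.38.

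Il12b encodes the p40 subunit shared by interleukin 12 and interleukin 23 (gene ID 16160, plus strand of chromosome 11 from 44400063 to 44414033). It was at 0.86, 1.01, 1.61 and 1.83 FPKM in the si-nc samples. It was at 2.65, 2.76, 3.58 and 4.07 FPKM in the si-Suclg2 samples. As with Il1b, numbers 3 and 4 were the higher ones in each group, and the lowest si-Suclg2 sample was above the highest si-nc sample. The mean rose 2.46-fold (0.88 ± 0.156 as log2 fold change with SE, limma adjusted p = 0.00282). With samples averaged in that way the limma adjusted p was 0.107. Il23a, the partner of p40 in interleukin 23, did not exceed 0.07 FPKM in any sample. Il12a, its partner in interleukin 12, had no row under that symbol among the genes the authors reported.

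Il1a and Il6 did not follow the other inflammatory genes. Il1a encodes interleukin 1 alpha, whose precursor is already active (gene ID 16175, minus strand of chromosome 2 from 129299610 to 129309972). It was at 5.13, 4.97, 5.05 and 5.09 FPKM with si-nc and at 4.0, 5.19, 4.62 and 4.04 FPKM with si-Suclg2. One si-Suclg2 sample, number 2, was above all si-nc samples and the other three were below them. The log2 fold change of -0.16 did not pass (limma adjusted p = 0.158), with a 95% interval from -0.32 to 0.01, below the interval of 0.64 to 1.73 for Il1b. Without si-Suclg2 replicate 2 it was -0.22 and passed as lower (limma adjusted p = 0.0419). Il6 encodes interleukin 6, an inducer of acute-phase genes (gene ID 16193, plus strand of chromosome 5 from 30013114 to 30019981). Its values were 0.74, 1.11, 0.99 and 0.95 FPKM with si-nc and 1.06, 1.03, 0.83 and 0.66 FPKM with si-Suclg2. The groups overlapped, and a two-sided exact permutation test gave p = 0.686, where 0.0286 is the smallest this design allows.

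The stretches of genome just before these genes are shown because Tnf, Il1b, Il12b and Ebi3 rose together while the means of Il6 differed by less than its spread. They run from 250 bases before to 50 bases after the start site, 5′ to 3′ along the gene, from RefSeq on GRCm38.p6, which held 8 of the 10 genes. Capitals mark every match, on either strand, to 5 short motifs: kB (GGGNNTTTC, bound by NF-kB), C/EBP (TTGCNNAA), AP-1 (TGANTCA), PU.1 (GAGGAA) and the TATA box (TATAAA), and no matches overlapped in these sequences.
Tnf (chr17:35201958-35202257, minus strand): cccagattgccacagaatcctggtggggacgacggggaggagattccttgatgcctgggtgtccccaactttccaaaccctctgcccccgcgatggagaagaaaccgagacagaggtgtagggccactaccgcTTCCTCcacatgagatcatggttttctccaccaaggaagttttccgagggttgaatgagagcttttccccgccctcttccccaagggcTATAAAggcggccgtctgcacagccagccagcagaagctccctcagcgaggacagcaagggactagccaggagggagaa
Il1b (chr2:129371090-129371389, minus strand): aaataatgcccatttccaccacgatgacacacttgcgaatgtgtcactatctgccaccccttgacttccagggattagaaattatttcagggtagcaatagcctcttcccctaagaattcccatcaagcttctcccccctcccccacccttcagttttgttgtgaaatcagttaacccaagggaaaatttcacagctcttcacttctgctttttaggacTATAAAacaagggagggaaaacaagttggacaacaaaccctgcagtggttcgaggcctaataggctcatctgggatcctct
Il12b (chr11:44399813-44400112, plus strand): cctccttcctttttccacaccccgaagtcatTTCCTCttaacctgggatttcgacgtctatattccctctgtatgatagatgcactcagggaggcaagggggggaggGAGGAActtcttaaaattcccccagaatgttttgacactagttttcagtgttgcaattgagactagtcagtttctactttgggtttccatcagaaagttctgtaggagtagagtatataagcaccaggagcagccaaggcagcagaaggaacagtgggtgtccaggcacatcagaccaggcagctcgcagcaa
Ebi3 (chr17:55952373-55952672, plus strand): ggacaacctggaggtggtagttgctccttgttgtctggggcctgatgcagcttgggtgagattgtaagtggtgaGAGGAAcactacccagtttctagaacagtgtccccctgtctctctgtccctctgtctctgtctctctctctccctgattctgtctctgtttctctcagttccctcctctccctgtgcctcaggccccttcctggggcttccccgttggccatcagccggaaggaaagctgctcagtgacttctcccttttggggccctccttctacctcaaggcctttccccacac
Il6 (chr5:30012864-30013163, plus strand): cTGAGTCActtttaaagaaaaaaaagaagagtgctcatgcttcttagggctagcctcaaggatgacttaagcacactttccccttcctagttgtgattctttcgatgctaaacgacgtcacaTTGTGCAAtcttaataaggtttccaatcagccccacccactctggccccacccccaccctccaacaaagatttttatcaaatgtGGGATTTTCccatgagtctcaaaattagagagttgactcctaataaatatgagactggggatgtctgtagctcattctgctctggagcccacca
A TATA match began at position -29 from the start site in Tnf and at -31 in Il1b, and 13.6% of 32851 promoter windows hold such a match. A kB match began at -44 in Il6, and 4.36% of all windows hold one. The 4 shown genes that rose had no match to these kB letters in this window, which says nothing about binding there or elsewhere. PU.1 matches, held by 28.3% of windows, were found in Tnf, Il12b and Ebi3. The Il6 window also held an AP-1 and a C/EBP match, as do 7.81% and 10.8% of windows. Il1a, which did not rise, held a TATA match at -32, a PU.1 match at -41 and an AP-1 match at -12. Of the windows of Il1rn, which did not pass, 2 that overlap held the same kB site, and 1 of these a TATA match after the start site. The remaining Il1rn window held an AP-1 match at -141.

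The suppressive genes did not move as one. Il10 encodes interleukin 10, which restrains cytokine output of myeloid cells (gene ID 16153, plus strand of chromosome 1 from 131019845 to 131024974). It was at 1.61, 1.68, 2.05 and 2.08 FPKM in the si-nc samples and at 3.84, 4.26, 5.39 and 4.98 FPKM in the si-Suclg2 samples. All si-Suclg2 samples were above all si-nc samples, and the fold within a number stayed between 2.39 and 2.63. The mean rose 2.49-fold (0.97 ± 0.101 as log2 fold change with SE, limma adjusted p = 0.000146). The level remained low beside the other suppressive genes.

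Ebi3 encodes the beta subunit of interleukin 27 and, with Il12a, forms interleukin 35 (gene ID 50498, plus strand of chromosome 17 from 55952640 to 55957022). The si-nc samples were at 74.17, 78.32, 74.01 and 78.94 FPKM, and the si-Suclg2 samples at 107.81, 103.15, 112.02 and 117.71 FPKM. The spread within a group was small against the distance between groups. The rise was 1.44-fold (0.52 ± 0.0493 as log2 fold change with SE, limma adjusted p = 8.41e-05). Il27 encodes the p28 subunit (gene ID 246779, minus strand of chromosome 7 from 126589010 to 126594941). It was at 5.27, 5.33, 5.75 and 5.37 FPKM with si-nc and at 6.12, 6.64, 6.91 and 9.50 FPKM with si-Suclg2. Its groups did not overlap either, but si-Suclg2 sample 4 was well above the rest. The rise was 1.34-fold (0.35 ± 0.109 as log2 fold change with SE, limma adjusted p = 0.0394). This call was lost on leaving out any of the 4 si-nc replicates (limma adjusted p = 0.0855, 0.0847, 0.0597 and 0.0795) or si-Suclg2 replicate 2 or 3 (0.0501 and 0.0653). It held without si-Suclg2 replicate 4 at a log2 fold change of 0.23 (limma adjusted p = 0.0312) and without si-Suclg2 replicate 1 (0.0228). It was also lost with no filter on low values (limma adjusted p = 0.0745; 16.2% of all genes were called there) and with samples averaged in pairs of numbers (0.212).

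Tgfb1, which encodes transforming growth factor beta 1, a cytokine secreted in latent form, was the only one of the 9 genes called lower (gene ID 21803, plus strand of chromosome 7 from 25687002 to 25705077). It was at 233.45, 233.78, 227.31 and 246.21 FPKM with si-nc and at 211.63, 211.43, 216.56 and 200.33 FPKM with si-Suclg2. The groups did not overlap, but the distance was small and 89.3% of the si-nc level remained (-0.16 ± 0.0425 as log2 fold change with SE, limma adjusted p = 0.0194). The call was lost without si-Suclg2 replicate 4 (log2 fold change -0.14, limma adjusted p = 0.0562) and with samples averaged in pairs of numbers (limma adjusted p = 0.291).

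Il1rn encodes the IL-1 receptor antagonist, which occupies the IL-1 receptor without signalling (gene ID 16181, plus strand of chromosome 2 from 24336853 to 24351494). It was at 76.84, 80.47, 51.35 and 49.34 FPKM with si-nc and at 84.31, 83.86, 67.28 and 64.26 FPKM with si-Suclg2. The groups overlapped, and numbers 1 and 2 were the higher ones in each group, the reverse of Il1b. The log2 fold change of 0.24 ± 0.17 SE did not pass (limma adjusted p = 0.347; 95% interval from -0.14 to 0.62). With the number as a replicate block the same 0.24 had an SE of 0.059 and passed (limma adjusted p = 0.0129). With samples averaged in pairs of numbers it did not pass (limma adjusted p = 0.642; 95% interval from -0.35 to 0.82). The folds within numbers were 1.10, 1.04, 1.31 and 1.30, above 1 in all 4. Numbers 1 and 2 alone gave a log2 fold change of 0.10 (limma adjusted p = 0.106), and numbers 3 and 4 alone gave 0.38 (limma adjusted p = 0.000798). Whether the effect differs between these pairs of numbers was not tested.

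**Figure D2:**
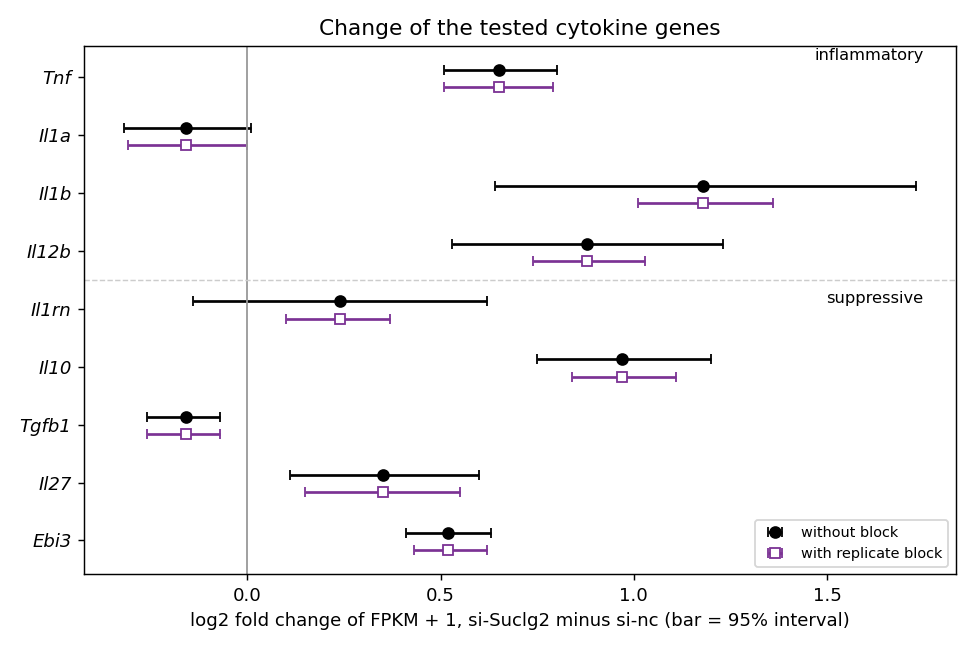
Log2 fold change of FPKM + 1, si-Suclg2 minus si-nc, for the 9 cytokine genes tested, with 95% intervals from limma without (black circles) and with (purple squares) the replicate number as a block. The estimates are the same in both fits, from -0.16 for Il1a and Tgfb1 to 1.18 for Il1b, and the interval of Il1rn excludes 0 only with the block.

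Set side by side, both classes held genes that rose. Of the 4 inflammatory genes tested, 3 rose and 0 fell, with a median log2 fold change of 0.77. Of the 5 suppressive genes, 3 rose and 1 fell, with a median of 0.35, which is the value of Il27. The median of all genes tested was -0.03. The inflammatory class had 1 fall, Il1a, without si-Suclg2 replicate 2, and the suppressive class had 0 falls without si-Suclg2 replicate 4. The suppressive rises were 2 on leaving out any 1 si-nc replicate or si-Suclg2 replicate 2 or 3. They were also 2 with no filter and with samples averaged in pairs of numbers. With the replicate block and with numbers 3 and 4 alone they were 4. The inflammatory rises stayed at 3 in every fit except that on samples averaged in pairs, where they were 1. With samples averaged in pairs of numbers, 3 of the 9 genes passed, namely Tnf, Il10 and Ebi3, against 2.67% of all genes. Summed over the class, inflammatory genes reached 37.6 to 48.2 FPKM with si-nc and 65.2 to 106.4 FPKM with si-Suclg2, and Il1b was the largest term in every sample of both groups. The suppressive sum, mostly Tgfb1, was 360.5 to 399.6 FPKM with si-nc and 396.8 to 413.7 FPKM with si-Suclg2, which overlapped. Inflammatory transcripts thus made up 8.76% to 11.2% of the summed FPKM of the 10 genes with si-nc and 13.6% to 21.1% with si-Suclg2. With Tgfb1 left out of the sum the ranges, 19.2% to 26.2% and 24.4% to 35.1%, overlapped, while within each of the 4 numbers the si-Suclg2 share was the higher one.

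Ratios within a sample showed how partners and opponents moved relative to each other, and they are given as descriptions with no test. Il1rn to Il1b, the antagonist over the agonist, was 4.95, 4.64, 2.45 and 1.90 with si-nc and 2.53, 2.47, 1.23 and 0.908 with si-Suclg2. The groups overlapped, yet within each number the si-Suclg2 ratio was 0.477 to 0.533 of the si-nc ratio. That narrow range rests on matching equal numbers. With the numbers swapped within a pair the range is wider, though the si-Suclg2 ratio is still the lower one in each match. Deviations from group means correlated no better between equal numbers (r of 0.40 to 0.55) than with the other number of the pair (0.44 to 0.56). Only si-Suclg2 sample 4 had more Il1b than Il1rn. The ratio of Tnf to Il10 was 6.90 to 9.51 with si-nc and 4.85 to 6.33 with si-Suclg2, without overlap, so Il10 gained on Tnf. The ratio of Ebi3 to Il12b was 43.1 to 86.2 with si-nc and 28.9 to 40.7 with si-Suclg2, also without overlap. The interleukin 27 subunits kept closer to each other, with an Ebi3 to Il27 ratio of 14.1 ± 0.861 with si-nc and 15.4 ± 2.21 with si-Suclg2 (SD, n = 4 each).

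**Figure D3:**
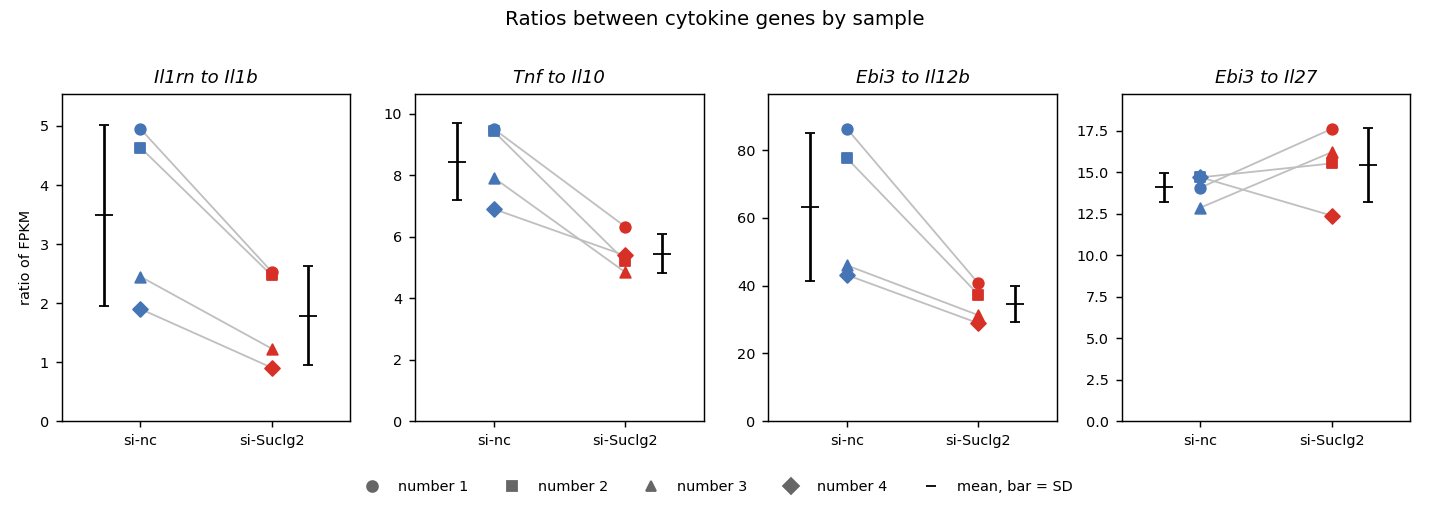
Ratios of FPKM between pairs of cytokine genes in each sample, on linear axes from 0, with groups by colour (blue si-nc, red si-Suclg2), replicate numbers by symbol and joined by grey lines, and mean and SD as black bars (n = 4). Every number has a lower Il1rn to Il1b, Tnf to Il10 and Ebi3 to Il12b ratio with si-Suclg2, while Ebi3 to Il27 is higher in 3 of 4 numbers.

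In the authors' deposited table the log2 fold changes, without a pseudocount of 1, were 1.318 for Il10, 1.3 for Il12b, 1.274 for Il1b, 0.689 for Tnf, 0.536 for Ebi3 and 0.334 for Il27. That table gave 0.216 for Il1rn, -0.163 for Tgfb1, -0.182 for Il1a and -0.078 for Il6. The DEGseq q-value in the authors' deposited table was under 0.05 for 9 of the 10 genes, all but Il6, but also for 47.6% of the 15465 genes.

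Genes that receive or pass on these cytokine signals moved in different directions. The counts in the lists that follow stand beside 12.0% of all genes called as higher and 14.9% as lower, or 18.0% and 22.5% with the replicate block. They rest on treating the 4 samples of a group as separate. With samples averaged in pairs of numbers, and the pairs not matched across groups, 23 of 29 named genes lost their call. The lists then held 2 rises and 3 falls in all. These were 1 fall among receptors, 1 among other cytokine genes, 1 rise in signal transduction, and 1 rise and 1 fall among transcript regulators. Of 12 receptor genes tested, 2 rose and 4 fell, with a median of -0.08. Il12rb2, a chain of the interleukin 12 receptor, had the largest log2 fold change of the 12, going from 4.44 ± 0.851 to 1.26 ± 0.366 FPKM (log2 fold change -1.27, limma adjusted p = 0.000224). The signalling receptors of TGF-beta fell together, Tgfbr1 from 18.8 ± 0.854 to 11.4 ± 1.58 FPKM (limma adjusted p = 0.000456) and Tgfbr2 from 46.4 ± 4.95 to 37.8 ± 1.80 FPKM (limma adjusted p = 0.0188; 0.0501 without si-Suclg2 replicate 2). Il6st, the shared signalling chain of the interleukin 6 family, fell from 11.6 ± 1.05 to 8.58 ± 0.766 FPKM (limma adjusted p = 0.0051). The death-domain receptor gene Tnfrsf1a rose from 104.6 ± 2.16 to 123.6 ± 2.58 FPKM (limma adjusted p = 0.00119). Il1r2, the decoy receptor of IL-1, rose from 1.91 ± 0.405 to 2.94 ± 0.459 FPKM (limma adjusted p = 0.0208), but this call, and with it 1 of the 2 rises, was lost on leaving out number 1 or 2 of si-nc or number 4 of si-Suclg2 (0.0511, 0.0554 and 0.0559). The interleukin 10 receptor genes did not pass, with Il10ra at 76.9 ± 7.59 and 77.7 ± 5.04 FPKM and Il10rb at 204.8 ± 6.71 and 195.8 ± 5.75 FPKM. The signalling IL-1 receptor gene Il1r1 did not exceed 0.38 FPKM, nor the interleukin 27 receptor gene Il27ra 0.23 FPKM, in any sample.

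Among 19 genes for cytokine processing and activation, 6 rose and 3 fell. The falls were 1 on leaving out number 1 or 2 of si-nc or number 3 of si-Suclg2, 7 with the replicate block and 6 with numbers 1 and 2 alone. Casp1, whose product cleaves the Il1b and Il18 precursors, rose from 66.9 ± 8.09 to 107.7 ± 7.36 FPKM (limma adjusted p = 0.000425). Casp4, the mouse caspase-11 gene, rose from 33.1 ± 3.39 to 51.0 ± 4.51 FPKM, and Casp8 from 44.6 ± 0.612 to 58.8 ± 2.40 FPKM (limma adjusted p = 0.000705 and 0.000149). Adam17, the sheddase that releases soluble TNF, fell from 44.7 ± 0.821 to 35.8 ± 1.84 FPKM (limma adjusted p = 0.00095). Of 4 related genes tested, 2 rose, and these were Il1f9, which encodes interleukin 36 gamma, from 24.5 ± 1.79 to 31.2 ± 2.16 FPKM (limma adjusted p = 0.00485), and Il18bp, which encodes the binding protein that neutralizes interleukin 18, from 375.0 ± 26.1 to 441.2 ± 34.5 FPKM (limma adjusted p = 0.0324). Only Il1f9 passed when any one of si-nc replicates 1, 2 and 4 and si-Suclg2 replicates 3 and 4 was left out, with a limma adjusted p of 0.0623 to 0.0854 for Il18bp. Of 8 other cytokine genes tested, 1 rose (2 with the replicate block or no filter) and 3 fell. Il15, a growth factor of natural killer cells, rose from 37.8 ± 1.62 to 50.1 ± 4.16 FPKM (limma adjusted p = 0.0016). Tnfsf13, which encodes APRIL, fell from 22.4 ± 0.991 to 12.5 ± 0.406 FPKM, Csf1, the macrophage growth factor gene, from 15.7 ± 2.66 to 8.24 ± 1.96 FPKM, and Osm from 6.84 ± 1.35 to 3.9 ± 0.696 FPKM (limma adjusted p = 6.28e-06, 0.00351 and 0.0058).

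Of 19 signal transduction genes, 6 rose and 3 fell, among the rises Irak3, a brake on Toll-like and IL-1 receptor signalling, from 19.5 ± 0.869 to 30.4 ± 2.53 FPKM (limma adjusted p = 0.000134). Stat3, which passes on interleukin 6 and interleukin 10 signals, rose from 39.6 ± 1.20 to 49.8 ± 1.26 FPKM, and the adaptor gene Myd88 rose from 80.3 ± 1.48 to 97.4 ± 3.11 FPKM (limma adjusted p = 0.000366 and 0.00076). The 3 falls were Irak1, Irak2 and Map3k7, with log2 fold changes of -0.22, -0.17 and -0.18 (limma adjusted p = 0.0151, 0.0151 and 0.0392). In most fits that left a sample out, these falls numbered 2. Of 13 feedback inhibitor genes, 5 rose and 2 fell (1 after quantile normalization or with numbers 1 and 2 alone). Socs3, an inhibitor of signalling through Il6st, rose 3.98-fold from 4.58 ± 1.70 to 18.2 ± 5.46 FPKM, and Socs1 rose from 15.4 ± 1.54 to 23.9 ± 1.05 FPKM (limma adjusted p = 0.000588 and 0.000253). Bcl3, a nuclear partner of NF-kB, rose from 28.6 ± 1.44 to 48.5 ± 8.43 FPKM, while Tollip, an adaptor that limits IL-1 receptor signalling, fell from 24.8 ± 0.915 to 20.3 ± 0.815 FPKM (limma adjusted p = 0.001 and 0.00197).

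Of 27 regulators of cytokine transcripts, 5 rose and 5 fell. The rises numbered 10 and the falls 9 with the replicate block. There were 3 falls when any one of si-nc replicates 1 to 3 was left out or si-Suclg2 replicate 4 was, after trimmed-mean scaling and with numbers 1 and 2 alone, and 2 when si-Suclg2 replicate 3 was left out. Nfkbiz, a nuclear co-regulator that induces a subset of cytokine genes, rose 2.86-fold from 6.01 ± 0.342 to 17.2 ± 2.21 FPKM (limma adjusted p = 7.29e-06). Cebpd rose from 9.11 ± 1.26 to 15.1 ± 2.42 FPKM and Nfil3, which represses Il12b in mouse macrophages, from 13.1 ± 1.37 to 19.0 ± 2.25 FPKM (limma adjusted p = 0.00258 and 0.00314). Bhlhe40, a repressor of Il10 in mouse T cells and macrophages, fell from 13.5 ± 0.821 to 7.80 ± 0.440 FPKM (limma adjusted p = 3.7e-05). The other falls were Zfp36l2 and the NF-kB subunit genes Rela, Nfkb1 and Nfkb2. The log2 fold changes of these 3 subunit genes were -0.16, -0.16 and -0.13 (limma adjusted p = 0.0214, 0.035 and 0.035). Over these 7 lists 27 of 102 tested genes rose and 20 fell, with a median of -0.03, and 4 of the 102 reached the filter in one group only.

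**Figure D4:**
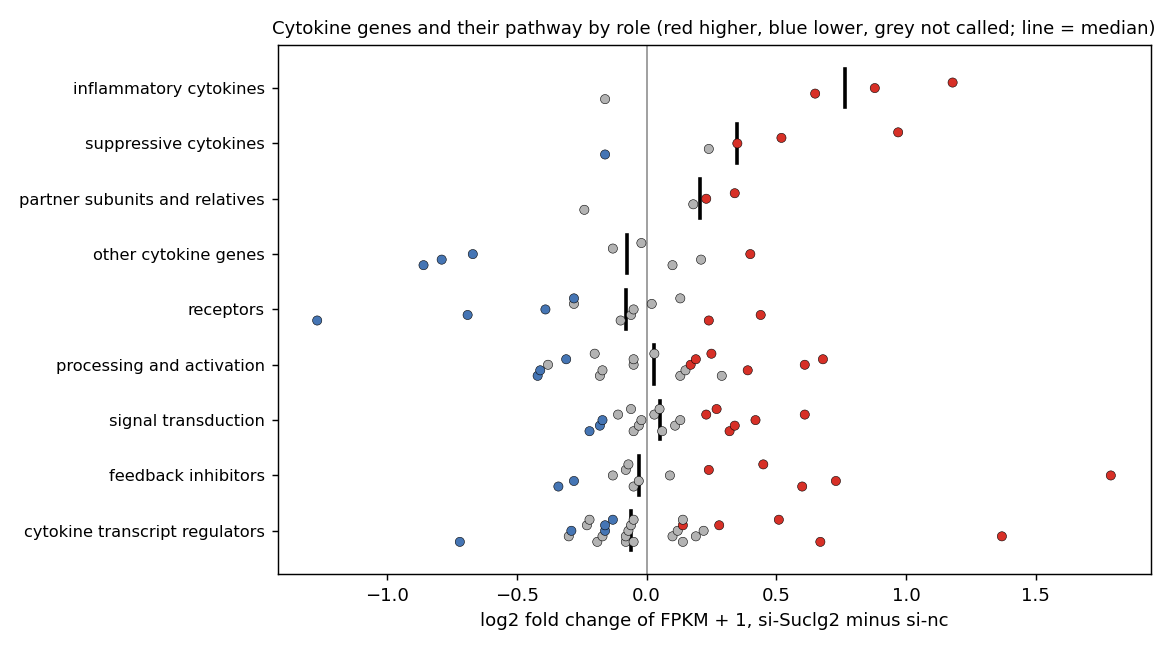
Log2 fold change of FPKM + 1, si-Suclg2 minus si-nc, of each tested gene in the cytokine classes and in 7 lists of related genes, 1 row per list and 1 point per gene. Red points were called higher and blue points lower at a limma adjusted p under 0.05, grey points were not called, and black lines are list medians, which run from 0.77 for inflammatory cytokines to -0.08 for receptors.

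Across the table, the tested genes whose standardized log2 profile over the 8 samples lay closest to that of Tnf were Zfp414, Lrrc25 and Myd88, with root mean square differences of 0.10 to 0.12 SD units. Those closest to Il10 were Pla2g7, Grk2 and Tecpr2, at 0.08 to 0.09. With 8 samples and 10176 genes such likeness is only a description.

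Some cell type markers moved with the groups. Summed markers of dendritic cells, 7 of 9 with a row in the table, were 47.9 to 55.2 FPKM with si-nc and 25.9 to 33.8 FPKM with si-Suclg2, and 3 of the 4 tested fell. The 8 macrophage and monocyte markers summed to 21504 to 26898 FPKM and 15826 to 18864 FPKM. Of these 8, 2 were called higher, Adgre1 and Fcgr1, and 4 lower, Csf1r, Lyz2, Cd68 and Apoe. Most of each sum came from Lyz2, with means of 10384 and 7455 FPKM, and Apoe, with means of 9883 and 6433 FPKM. These counts stand beside 12.0% of all genes called higher and 14.9% called lower. Of 6 neutrophil markers, S100a8 rose from 1.18 ± 0.409 to 2.27 ± 0.723 FPKM (limma adjusted p = 0.0346) and the other 5 stayed below 1 FPKM in every sample. All T cell and B cell markers with a row were below 1 FPKM. Stroma markers summed to 25.1 to 44.2 FPKM and 33.5 to 41.4 FPKM, which overlapped, but the genes moved in different directions. Of 5 tested genes 1 was called, Pdpn, which rose from 20.6 ± 2.87 to 27.1 ± 3.27 FPKM (limma adjusted p = 0.03). Col1a1, Col1a2, Col3a1 and Dcn had lower means with si-Suclg2 and did not pass. The part of these shifts in the cytokine values was not tested.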

How the data were processed

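RNA from 4 si-nc and 4 si-Suclg2 samples was sequenced by Illumina HiSeq, as the labels' protocols state. The authors deposited one table of 15465 genes with a value per sample, a log2 fold change and DEGseq p-values with their q-values, per the file headers. The headers leave the unit of the sample values unnamed. They were treated as FPKM made by the authors, because reads implied by the deposited p-values and fold changes, per unit of value, rose with transcript length (rho = 0.91, Spearman, over 4723 genes that are no independent replicates) and were nearly constant per kilobase, with medians of 80.6 to 83.8 over 8 length classes. This does not tell FPKM from another length-scaled unit, and the test was the same for either. Positive values of the authors' log2 fold change mean a higher si-Suclg2 level, as read from the values. Genome builds were GRCm38.p4 and mm10, per the submitters' processing notes; for the aligner and counter, not given in the sources used here. Gene positions are from GENCODE on GRCm38.

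Testing used log2(FPKM + 1) and limma 3.58.1 (R 4.3.3), the prior variance following the mean level and no covariate, over the 10176 genes averaging 1 FPKM or more in a group, and Benjamini-Hochberg adjustment at 0.05. The fit was tested on simulated data with independent samples. These held no shift between numbers 1 and 2 and numbers 3 and 4, so that test does not cover such a shift. In 22 rows a spreadsheet date number was replaced by the symbol of the gene ID. Other settings were a pseudocount of 0.1, no filter, a replicate block, and trimmed-mean and quantile scaling. Each sample was also left out, and numbers 1 and 2 or 3 and 4 were fitted alone or as means of those pairs. The fit on means held no term for the pair. Deviations from group means correlated between same-numbered samples with r of 0.40 to 0.55 (numbers were taken as pairs if every r was over 0.1), and as much (0.44 to 0.56) with the other number of the pair. The labels do not tie numbers to a culture or day. Named genes were the 10 cytokine genes, Suclg2, all called receptor genes, up to 4 called genes with the smallest p per other list, and the 3 genes most like Tnf and Il10; any other gene was named after its values were seen, and a gene that the rule selects is not reported here. The cytokine genes and lists were chosen with earlier results of these data known.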

Additional observations from a re-analysis of the deposited data

Results flagged for a closer look

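Of 88 sets of 4 values checked for a sample far from the others of its group, covering the 10 cytokine genes, the named genes and the ratios, 3 stood out, and chance alone gives about 1 in 20. None of the 10 cytokine genes was among them. Casp4 in si-Suclg2 sample 3 was at 44.22 FPKM, below the other si-Suclg2 samples. Bcl3 in si-nc sample 4 was at 30.73 FPKM, above the other si-nc samples. Bhlhe40 in si-Suclg2 sample 1 was at 8.46 FPKM, above the other si-Suclg2 samples.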

How the results depend on the processing

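Tnf, Il10 and Ebi3 kept their direction and call in all 16 alternatives. Il1b and Il12b lost the call only with means of pairs of numbers (log2 fold change 1.19 and 0.88). Tgfb1 lost it there (-0.16) and in 1 of 8 fits that left a sample out, and Il27 there (0.36), with no filter on low values (0.35) and in 6 of 8 such fits. With the replicate block Il1rn was called (0.24), as with numbers 3 and 4 alone (0.38), and the block changed no other call among the cytokine genes. Il6 moved to 0.09 with numbers 1 and 2 alone. With single samples left out, log2 fold changes ran from -0.22 to -0.11 for Il1a, -0.18 to -0.14 for Tgfb1 and 0.23 to 0.42 for Il27, and the falls were 0 to 1 for inflammatory and 0 to 1 for suppressive genes. The inflammatory median was 0.95 with a pseudocount of 0.1. Over all genes, 1832 rose and 2294 fell with the replicate block. With means of pairs of numbers 125 rose and 147 fell, and 1 inflammatory gene rose, 0 suppressive genes fell, and 2 related genes rose and 3 fell. Other named genes gave 464 values, of which 431 kept their call, 33 lost it, 23 of them with means of pairs of numbers, and 0 reversed. The cause of these changes was not tested. The number of samples and the unknown depth limit precision.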

Other observations

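Some cytokine genes stayed under the filter and were not tested; they are named here after their values were seen. Il7, a lymphocyte survival factor, had a mean of 0.325 ± 0.0777 FPKM in the si-nc group and of 0.518 ± 0.0718 FPKM in the si-Suclg2 group (SD, n = 4 each). In the same order Tgfb2 was at 0.615 ± 0.139 and 0.345 ± 0.135 FPKM. Csf2, the GM-CSF gene, was at 0.893 ± 0.301 and 0.788 ± 0.213 FPKM, and Lif at 0.775 ± 0.171 and 0.675 ± 0.228 FPKM. Il33, Il13 and Il19 did not exceed 0.09 FPKM in any sample.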
